A study of Arabidopsis thaliana with 18 samples.

Results

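The miR397, miR398 and miR408 families of Arabidopsis thaliana were described from 24 sequences, namely all sequences listed under these 3 family names in the deposited miRNA abundance table, of 476 distinct sequences in 101 families. miR397 (listed as mir397) had 3 sequences, miR398 (mir398) had 12 and miR408 (mir408) had 9, and no member sequence was listed under another family. Small RNA came from rosette leaves of Col-0 wild type plants grown on soil for around 5 to 6 weeks in short days, in 3 treatments, namely no treatment, a mock treatment and a spray with the necrotrophic fungus Alternaria brassicicola (1000000 spores per ml in 0.01% Silwet L 77, a wetting agent). The Alternaria-treated leaves were taken on day 3; the harvest day of the other treatments and the content of the mock spray are not given in the sources used here. Each treatment had 3 libraries of total small RNA and 3 libraries of small RNA recovered with an antibody against ARGONAUTE1 (AGO1), 18 libraries in 6 groups, and the 2 kinds of library were built with different protocols. The labels do not say that replicates came from separate plants, so the p-values measure the spread between these libraries, which may be technical.

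miR397, miR398 and miR408 are known as copper miRNAs. When copper is scarce, the transcription factor SPL7 binds GTAC motifs in their promoters and raises them, and they in turn cleave or repress mRNAs of copper proteins that the plant can spare. miR398 acts on the copper/zinc superoxide dismutases CSD1 and CSD2, which detoxify superoxide, and on their copper chaperone CCS. miR408 acts on the blue copper protein plantacyanin (ARPN) and on laccases, and miR397 acts on laccases that polymerise lignin. A miRNA is cut from a hairpin as a duplex of a 5p and a 3p strand, of which 1 is kept by an ARGONAUTE protein. AGO1, which carries out most miRNA-guided cleavage in plants, is known to favour small RNAs with U at the 5′ end.

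The sequences on which the results turn are printed first, 5′ to 3′ with T for U and the seed (bases 2 to 8) in capitals. For miR398 these are the main 3p strand of the MIR398b and MIR398c loci, which share it, the 3p strand of MIR398a, which differs from it in the last base, the shorter 3p forms that all 3 loci could give, and the 5p strands.
miR398b/c-3p, 21 nt: tGTGTTCTcaggtcacccctg
miR398a-3p, 21 nt: tGTGTTCTcaggtcacccctt
miR398a/b/c-3p, 20 nt: tGTGTTCTcaggtcacccct
miR398a/b/c-3p, 19 nt: tGTGTTCTcaggtcacccc
miR398b/c-5p, 21 nt: aGGGTTGAtatgagaacacac
miR398a-5p, 21 nt: aAGGAGTGgcatgtgaacaca

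The first 4 of these lines share the seed GTGTTCT, and each of the 5p strands has a seed of its own. For miR408 the forms that differ in their 5′ end are shown, since the fractions differed in them; start +1 means that the 5′ end lies 1 base downstream of the annotated mature sequence. The shift turns a 5′ A into a 5′ U on the 3p strand and moves the seed by 1 base.
miR408-3p, 21 nt: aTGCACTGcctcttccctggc
miR408-3p, 20 nt, start +1: tGCACTGCctcttccctggc
miR408-3p, 21 nt, start +1: tGCACTGCctcttccctggct
miR408-3p, 18 nt, start +1: tGCACTGCctcttccctg
miR408-5p, 21 nt: aCAGGGAAcaagcagagcatg
miR408-5p, 21 nt, start +1: cAGGGAACaagcagagcatgg

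miR397 was listed only from the 5p arm, and its loci differ in 1 base of the mature sequence outside the seed.
miR397a-5p, 21 nt: tCATTGAGtgcagcgttgatg
miR397b-5p, 21 nt: tCATTGAGtgcatcgttgatg

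All member sequences matched the TAIR10.1 assembly of RefSeq inside their own hairpins and nowhere else. The hairpins are shown for MIR398a, MIR398b and MIR408 with the annotated mature strands in capitals, so that the 5p and 3p strands can be seen in place. MIR398b and MIR398c lie in tandem on chromosome 5 with 3556 bases between them, and MIR398a and MIR408 lie on chromosome 2.
MIR398a hairpin, chr2:1040938-1041042, + strand: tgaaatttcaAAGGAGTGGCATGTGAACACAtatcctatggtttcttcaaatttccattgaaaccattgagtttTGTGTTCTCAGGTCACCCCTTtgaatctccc
MIR398b hairpin, chr5:4691022-4691137, + strand: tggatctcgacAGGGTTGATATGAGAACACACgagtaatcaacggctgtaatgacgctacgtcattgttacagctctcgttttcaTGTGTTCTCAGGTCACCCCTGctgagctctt
MIR408 hairpin, chr2:19319814-19320031, + strand: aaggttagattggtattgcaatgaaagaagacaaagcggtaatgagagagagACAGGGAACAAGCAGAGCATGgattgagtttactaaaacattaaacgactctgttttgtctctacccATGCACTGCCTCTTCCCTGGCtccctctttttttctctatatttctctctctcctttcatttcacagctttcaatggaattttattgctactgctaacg

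Known target sites were placed by the best ungapped alignment to the RefSeq transcripts, and 4 are shown with the bases that pair with the miRNA by Watson-Crick rules in capitals. For CSD2 and CCS the best site found in this way paired poorly, with 5 mismatches each, and is not shown. The CSD1 site lies before the start codon and is split by an intron, so its span in the genome is longer than the site. The ARPN site had 2 mismatches to miR408-3p of 21 nt, and its last base pairs with the 5′ A that the start +1 forms lack. The sites of LAC12, a laccase targeted by miR408, and of LAC2, a laccase targeted by miR397, lie in coding sequence. The target mRNAs themselves were not measured here.
CSD1, chr1:2827177-2827685, + strand: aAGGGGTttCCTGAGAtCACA
ARPN, chr2:827696-827716, - strand: cCaAGGGAAGAGGCAGTGCAT
LAC12, chr5:1594966-1594986, + strand: GCCgGtGAAGAGGCtGTGCAa
LAC2, chr2:12526364-12526384, - strand: aATCAAtGcTGCACTCAATGA

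GTAC, the core of the copper response element and its own reverse complement, was counted in the 300 bases before each annotated hairpin, which is not the transcription start. MIR398b had 7 copies, MIR398c 5, MIR408 4, MIR397b 4 and MIR397a 3, while MIR398a had 0. MIR857, the locus of a further copper miRNA outside these 3 families, also had 0. Its window spans the whole MIR397b hairpin, however, and stops just short of the 4 copies before that hairpin. Of 326 annotated MIR loci, 39.3% held at least 1 copy in a window of this length, 3.68% at least 3 and 1.84% at least 4. The windows of MIR398a and MIR398b are printed with GTAC in capitals because their reads are set side by side further on. A match describes these letters and no binding was measured.
upstream of MIR398a, chr2:1040638-1040937, + strand: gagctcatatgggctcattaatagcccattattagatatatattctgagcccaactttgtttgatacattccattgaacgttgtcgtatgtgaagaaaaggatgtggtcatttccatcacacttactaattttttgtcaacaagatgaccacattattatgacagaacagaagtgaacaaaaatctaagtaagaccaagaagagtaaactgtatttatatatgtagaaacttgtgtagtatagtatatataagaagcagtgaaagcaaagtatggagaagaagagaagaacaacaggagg
upstream of MIR398b, chr5:4690722-4691021, + strand: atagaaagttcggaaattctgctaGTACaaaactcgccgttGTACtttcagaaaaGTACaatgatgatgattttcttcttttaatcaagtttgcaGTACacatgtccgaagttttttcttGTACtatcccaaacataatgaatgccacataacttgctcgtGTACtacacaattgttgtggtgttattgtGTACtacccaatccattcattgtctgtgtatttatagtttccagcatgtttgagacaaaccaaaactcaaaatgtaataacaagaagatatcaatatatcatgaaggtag

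Levels are given as CPM (counts of reads per 1000000 miRNA reads), scaled within total or within AGO1 libraries by trimmed mean of M-values (TMM) factors. Total libraries held 753927 to 3034481 miRNA reads and AGO1 libraries 10835770 to 20317660. miRNA reads made up 77.8% to 83.4% of genome-matched reads in AGO1 libraries. In total libraries the share was 2.63% ± 0.114 (SD, n = 3) in untreated, 8.54% ± 4.15 in mock and 9.56% ± 1.96 in Alternaria-treated plants, so the untreated total libraries stood apart in this measure. The table lists no read number under 15 per run, and with 2 runs per library a sequence listed at 0 may hold up to 28 reads. With no factor such a number reaches 37.1 CPM in a total library and 2.58 CPM in an AGO1 library, and with factors over all 18 libraries it reaches 25.5 and 3.48 CPM.

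Among AGO1-bound miRNAs miR398 was by far the largest of the 3 families and miR397 the smallest, while in total small RNA miR398 and miR408 were of like size. In untreated total libraries miR398 stood at 2899.8, 3329 and 2057 CPM, in mock libraries at 2764, 3481 and 3747 CPM, and in Alternaria-treated libraries at 2115, 2716 and 1779 CPM. The mock and Alternaria values did not overlap, and the untreated values overlapped both. In AGO1 libraries miR398 stood at 8745, 11184 and 17222 CPM in untreated, 19087, 18692 and 25996 CPM in mock, and 10610.1, 15089.8 and 11210.3 CPM in Alternaria-treated plants. All 3 mock libraries were above all 6 others, and the untreated and Alternaria libraries overlapped. How many of all families or sequences separate between groups in this way was not counted. A lack of overlap, here and below, therefore does not mark the copper families.

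miR408, summed over both strands, ran differently in the 2 fractions. In total small RNA it stood at 2589.9, 3482 and 1802 CPM in untreated, 2258, 3478 and 3421 CPM in mock, and 5706, 4554 and 4166 CPM in Alternaria-treated plants. Every Alternaria library was above every other total library. In AGO1 libraries miR408 stood at 547, 312 and 339 CPM in untreated, 438, 308 and 283 CPM in mock, and 244, 237 and 163 CPM in Alternaria-treated plants. Here every Alternaria library was below every other.

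miR397 was listed at 0 in all 9 total libraries, and in AGO1 libraries it stood at 11.2, 12.4 and 9.65 CPM in untreated, 5.30, 8.72 and 4.74 CPM in mock and 4.78, 7.98 and 4.21 CPM in Alternaria-treated plants. The untreated libraries were above all others, and mock and Alternaria overlapped. At sequence level miR397b-5p of 21 nt was listed in all 9 AGO1 libraries, at 6.36, 8.55 and 7.21 CPM in untreated, 5.30, 6.42 and 4.74 CPM in mock and 4.78, 5.94 and 4.21 CPM in Alternaria-treated plants. Untreated and Alternaria libraries did not overlap, and mock overlapped Alternaria and, at 1 library, untreated. None of the 3 treatment comparisons passed for it in limma (log2 difference of Alternaria to untreated -0.49 ± 0.31, adjusted p = 0.33). miR397a-5p of 22 nt was listed in the 3 untreated libraries (4.84, 2.28 and 2.44 CPM), in mock replicate 2 (2.31 CPM) and in Alternaria replicate 2 (2.04 CPM), and the 21 nt form in untreated replicate 2 (1.62 CPM). Per miRNA reads, with or without factors over all 18 libraries, all of these levels lie under what an unlisted sequence could hold in a total library, whereas per genome-matched reads their mean lies above it, so miR397 was not compared between fractions. The reads of miR857, another laccase-directed copper miRNA whose locus lies 90 bases from MIR397b, are not described here.

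**Figure D1:**
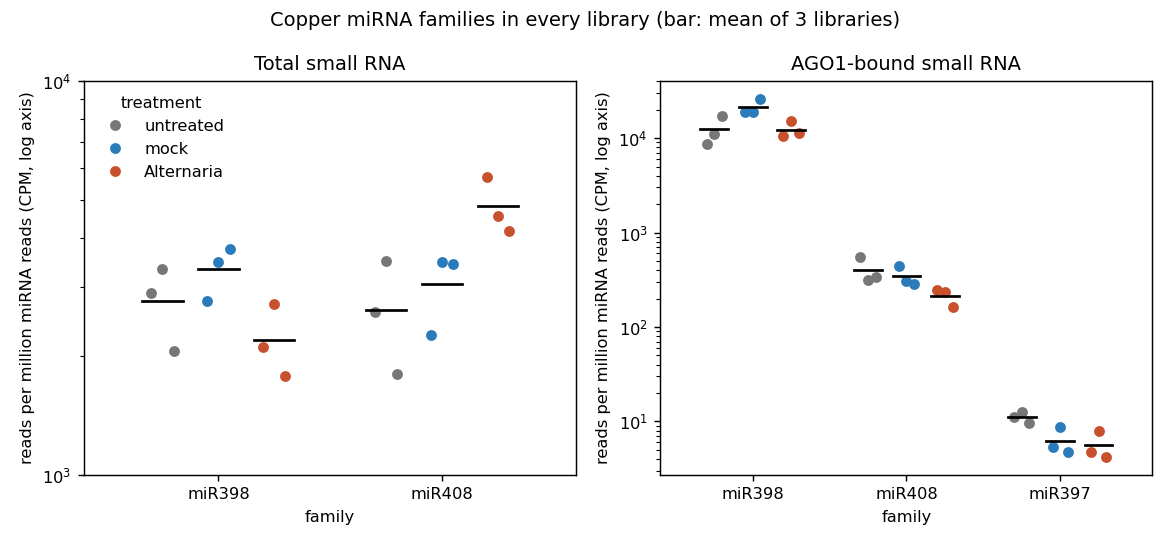
CPM (read number scaled to miRNA reads, log axis) of miR398 and miR408 in total libraries and of all 3 families in AGO1 libraries, 1 point per library and a bar at the mean of 3, with CPM scaled within each fraction. For miR408 the Alternaria points are the highest in total small RNA, from 4166 to 5706 CPM, and the lowest in AGO1, from 163 to 244 CPM.

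The largest differences lay between the fractions. In a limma fit of log2(CPM + 1) over all 18 libraries, with Benjamini-Hochberg adjustment over all families tested, miR398 was 11.9-fold higher in AGO1 than in total libraries (log2 difference 3.57 ± 0.15 SE, mean of 3 treatments, adjusted p = 8.4e-13). miR408 was 4.95-fold lower (log2 difference -2.31 ± 0.18, adjusted p = 3.6e-09), although with scaling to genome-matched reads the sign turned (0.33, adjusted p = 0.19) and the median of all families moved from -0.04 to 1.18. Of 95 families tested 85.3% passed this comparison, so passing it does not mark the copper families. As a percentage of all miRNA reads, with no scaling factor, miR398 took 0.173% to 0.412% in total libraries and 0.682% to 2.83% in AGO1 libraries, and miR408 took 0.206% to 0.49% and 0.014% to 0.0427%. Neither family overlapped between the fractions. Library protocol and AGO1 binding cannot be told apart in these differences, nor can fewer cells of a type and less RNA per cell in any comparison of whole leaves.

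Within the families the fractions held different strands. The 3p strand made up 81.1% ± 9.27 (SD, n = 9) of miR398 reads in total and 99.96% ± 0.066 in AGO1 libraries, with ranges of 58.7% to 89.9% and 99.8% to 100%. For miR408 it made up 27.5% ± 7.43 in total and 93.4% ± 2.57 in AGO1 libraries, with ranges of 17.96% to 40.4% and 89.1% to 97.7%. The differences of 18.8 and 65.8 percentage points each gave adjusted p = 0.00025 in an exact two-sided permutation test within treatments, the smallest it can give. If every unlisted member sequence held 28 reads, the 3p share of miR408 would reach at most 41.2% in a total library and would be at least 87.7% in an AGO1 library.

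miR398 in AGO1 libraries was almost a single sequence. miR398b/c-3p of 21 nt made up 99.3% to 99.8% of miR398 reads in each AGO1 library, and 40.6% to 68.9% in each total library. Its levels in total small RNA were 1792, 2292 and 1289 CPM in untreated, 1659.9, 2253 and 2216 CPM in mock and 1149, 1458 and 721 CPM in Alternaria-treated plants. In AGO1 they were 8688, 11140.4 and 17161 CPM, 19027, 18630.4 and 25932 CPM, and 10582, 15059.7 and 11188 CPM in the same order. The Alternaria libraries were below every mock library in both fractions. The sequence was higher in AGO1 by 4.36 ± 0.18 on the log2 scale (adjusted p = 1.7e-12), in a comparison that 85.5% of 379 sequences passed.

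The same 3p strand cut 1 or 2 bases shorter went the other way. miR398a/b/c-3p of 20 nt stood at 281, 255 and 257.5 CPM in untreated, 329.7, 475 and 606.5 CPM in mock and 308.5, 399 and 183 CPM in Alternaria-treated total libraries. In AGO1 libraries it stood at 26.4, 23.4 and 32.2 CPM in untreated, 38.9, 40.6 and 41.9 CPM in mock and 18.4, 19.2 and 14.4 CPM in Alternaria-treated plants, with every mock library above every other. The fractions did not overlap, with a log2 difference of -2.43 ± 0.19 (adjusted p = 8.9e-09). With scaling to genome-matched reads that difference turned to 0.16 (adjusted p = 0.56). The 19 nt form stood at 236, 328 and 202 CPM in untreated, 194, 351 and 332 CPM in mock and 158, 179 and 84.1 CPM in Alternaria-treated total libraries, with every Alternaria library below every other. In AGO1 libraries it stood at 9.40, 10.2 and 18.4 CPM in untreated, 16.1, 13.5 and 14.7 CPM in mock and 8.55, 9.47 and 7.77 CPM in Alternaria-treated plants, a log2 difference of -2.98 ± 0.20 (adjusted p = 1.2e-09), which was -0.39 (adjusted p = 0.15) with the same scaling. Forms of 21 nt took 70.9% to 79.9% of the miR398 3p reads in total libraries and 99.6% to 99.8% in AGO1 libraries, which no scaling between libraries can change.

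The 5p strands of miR398 were listed in total libraries and, at 21 nt, in no AGO1 library. miR398a-5p stood at 271, 157 and 133 CPM in untreated, 226, 108 and 216 CPM in mock, and 303, 272 and 456 CPM in Alternaria-treated total libraries. Against the highest level that 28 unlisted reads have in an AGO1 library, miR398a-5p was at least 44.7-fold lower in AGO1 with factors over all 18 libraries, at least 92-fold with no factor and at least 9.08-fold per genome-matched reads. For miR398b/c-5p these bounds were 42.9, 86.6 and 7.92. The latter stood at 188, 269 and 155 CPM in untreated, 259, 229.5 and 248 CPM in mock and 136, 281 and 226 CPM in Alternaria-treated total libraries, with all treatments overlapping. Both start with A, whereas the 3p strand starts with U. The miR398b/c-5p forms of 20 and 19 nt with start +1, which start with G, were listed in 6 and 3 AGO1 libraries. They reached at most 11.4 and 6.42 CPM there. The part of the 5′ base was not tested.

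The reads of the MIR398a locus can be told from those of MIR398b and MIR398c by the 5p strand and by the last base of the 3p strand. In total small RNA miR398a-5p did not pass against mock (log2 difference 0.94 ± 0.38, adjusted p = 0.23), where 1.35% of 296 sequences did, or against untreated (0.91 ± 0.38, adjusted p = 0.11). Its share of miR398 reads in total small RNA was 10.0% to 25.6% in Alternaria libraries against 3.11% to 8.19% in mock and 4.7% to 9.36% in untreated libraries. The share of miR398b/c-3p of 21 nt was 40.6% to 54.3% in Alternaria libraries against 59.1% to 64.7% in mock and 61.8% to 68.9% in untreated libraries. In neither share did the Alternaria libraries overlap the others; both shares were singled out after their values were seen and are given without a test. MIR398a, the miR398 locus without GTAC in its window, gave 30.7% to 69.1% of the 5p reads of miR398 in total libraries. Its 3p strand of 21 nt stood at 20.3 to 102 CPM in total libraries and at no more than 4.51 CPM in AGO1 libraries.

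**Figure D2:**
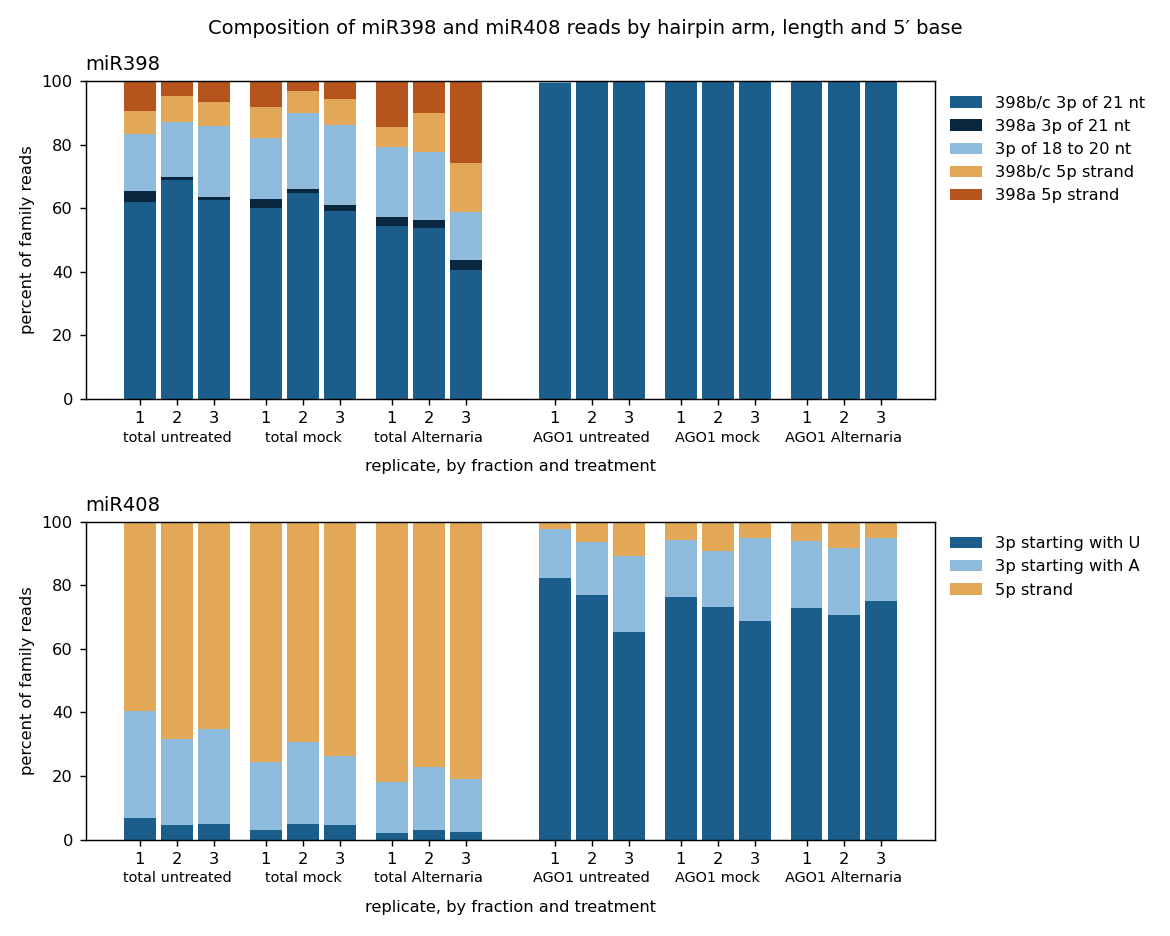
Percent of miR398 reads and of miR408 reads in each of the 18 libraries by hairpin arm, length and 5′ base, stacked to 100. In AGO1 libraries miR398b/c-3p of 21 nt fills 99.3% to 99.8% of the miR398 bars, and for miR408 the 5p strand fills 59.6% to 82.0% in total and 2.31% to 10.9% in AGO1 libraries.

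Among the miR408 3p reads, forms that start with U made up 11.6% to 17.7% in total libraries and 72.4% to 84.1% in AGO1 libraries. Not every such form passed between fractions. The 21 nt form with start +1 also starts with U but did not pass, as given below. Its mean was 88.9 CPM in total and 31.8 CPM in AGO1 libraries, each scaled within its own fraction. It had 1438 reads in total libraries, where the annotated 21 nt form that starts with A had 12293. In AGO1 libraries these were 4674 and 8980 reads. The parts of 5′ base and length were not tested. The annotated miR408-3p of 21 nt, which starts with A, stood at 875, 938 and 539.9 CPM in untreated, 481, 895 and 740.1 CPM in mock and 904, 895 and 705 CPM in Alternaria-treated total libraries. In AGO1 libraries it stood at 85.0, 52.0 and 80.5 CPM, 77.7, 53.6 and 74.1 CPM, and 51.4, 49.5 and 32.2 CPM. The treatments overlapped in total small RNA, and in AGO1 the Alternaria libraries were below the others.

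The 20 nt form that lacks the first base showed the opposite order of fractions. miR408-3p of 20 nt with start +1 stood at 60.1, 74.8 and 21.5 CPM in untreated, 10.1, 53.7 and 50.3 CPM in mock and 30.3, 46.5 and 25.5 CPM in Alternaria-treated total libraries. In AGO1 libraries it stood at 248, 139.5 and 137 CPM, 218, 139 and 118 CPM, and 122.7, 112 and 82.7 CPM. It was higher in AGO1 by 3.04 ± 0.34 on the log2 scale (adjusted p = 6.5e-07), while the form that starts with A was lower by -2.52 ± 0.19 (adjusted p = 5.0e-09). With scaling to genome-matched reads the first difference was 5.09 and the second turned to 0.11 (adjusted p = 0.67). The 18 and 19 nt forms with start +1 were listed in every AGO1 library and in no total library. Their mean levels were 29.1 and 28.7 CPM with no factor, under the 37.1 CPM that an unlisted sequence could hold in a total library, but 47.0 and 45.0 CPM with factors over all 18 libraries, above the 25.5 CPM of that scale, so no difference between fractions is given for them. miR408-3p of 21 nt with start +1 stood at 59.1 to 118 CPM in total and 13.5 to 59.2 CPM in AGO1 libraries and did not pass (-0.43 ± 0.25, adjusted p = 0.11).

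miR408-5p of 21 nt was the most read miR408 sequence of total small RNA. It stood at 1371, 2098 and 1061 CPM in untreated, 1559, 2187 and 2318 CPM in mock, and 4427, 3291 and 3182 CPM in Alternaria-treated total libraries. Every Alternaria library was above every other total library. In AGO1 libraries it stood at 12.6, 20.3 and 37.0 CPM, 25.8, 28.8 and 14.7 CPM, and 15.03, 19.9 and 8.35 CPM, with all treatments overlapping. It was lower in AGO1 by -5.68 ± 0.20 on the log2 scale (adjusted p = 3.7e-13). The 5p form with start +1 stood at 172, 285.5 and 115 CPM in untreated, 149, 223 and 191 CPM in mock and 217, 206 and 166 CPM in Alternaria-treated total libraries, with all treatments overlapping. It was listed in no AGO1 library. By its mean over total libraries it was at least 36.9-fold lower in AGO1 with factors over all 18 libraries, at least 73.6-fold with no factor and at least 6.53-fold per genome-matched reads.

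**Figure D3:**
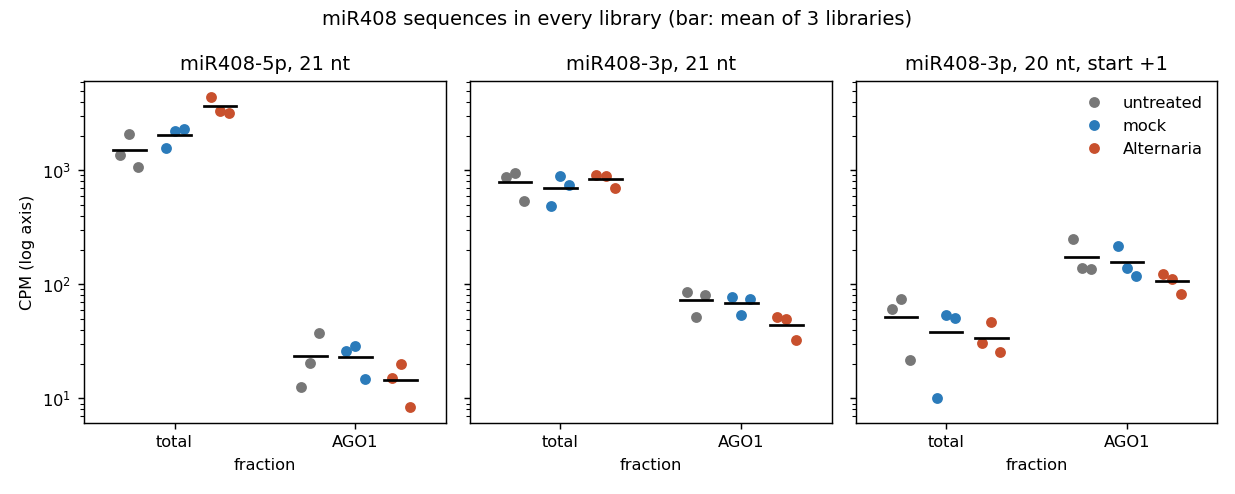
CPM (log axis, scaled within each fraction) of the main 5p sequence of miR408, of its 3p sequence that starts with A and of its 3p sequence with start +1 that starts with U, 1 point per library and a bar at the mean of 3. The 5p sequence has its highest points, 3182 to 4427 CPM, in Alternaria-treated total libraries, and the 3p sequence with start +1 is higher in AGO1, from 82.7 to 248 CPM, than in total libraries, from 10.1 to 74.8 CPM.

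**Figure D4:**
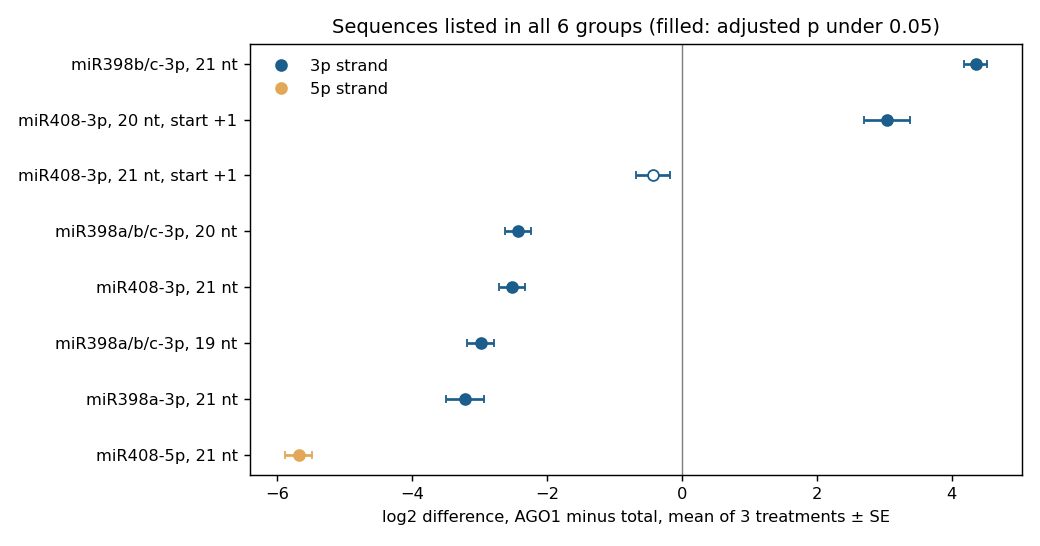
Log2 difference between AGO1 and total libraries, mean of 3 treatments with its standard error, for the member sequences listed in all 6 groups. miR398b/c-3p of 21 nt (4.36) and miR408-3p of 20 nt with start +1 (3.04) lie on the AGO1 side, and miR408-5p of 21 nt (-5.68) lies farthest on the side of total small RNA.

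Against mock treatment, none of the families passed in either fraction. In total small RNA the log2 difference between Alternaria and mock was -0.61 ± 0.28 for miR398 (adjusted p = 0.27) and 0.67 ± 0.30 for miR408 (adjusted p = 0.27), where 6.49% of 77 families passed and the median over families was 0.31. In AGO1 libraries it was -0.79 ± 0.27 for miR398 (adjusted p = 0.091), -0.67 ± 0.29 for miR408 (adjusted p = 0.21) and -0.13 ± 0.36 for miR397 (adjusted p = 0.94), where 5.06% of 79 families passed and the median was -0.0036. The miR398 difference in AGO1 passed with scaling to genome-matched reads (-1.02, adjusted p = 0.046), with TMM factors from all listed families (-1.12, adjusted p = 0.0075) and without untreated replicate 3 (-0.79, adjusted p = 0.020). The authors' deposited table gives -0.92 for miR398 in AGO1 with an adjusted p-value of 0.096, and the authors' deposited table for total small RNA gives -0.68 for miR398 and 0.56 for miR408 with adjusted p-values of 0.26 and 0.80. The share of miRNA reads overlapped between mock and Alternaria total libraries (5.33% to 13.2% and 7.76% to 11.7%).

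At the level of sequences, miR398a/b/c-3p of 20 nt fell between mock and Alternaria in AGO1 libraries, from 38.9, 40.6 and 41.9 CPM to 18.4, 19.2 and 14.4 CPM (log2 difference -1.19 ± 0.27, adjusted p = 0.024), as 4.12% of 267 sequences changed. The call was lost in each of the 6 fits that left out 1 mock or 1 Alternaria library, with values from -1.41 to -1.16, and with all libraries in 1 fit (-1.37, adjusted p = 0.17). The main miR398b/c-3p of 21 nt did not pass (-0.79 ± 0.28, adjusted p = 0.20). miR398a-3p of 21 nt also passed (-2.01, adjusted p = 0.024) but was listed at 17 reads in 1 Alternaria library and at 0 in the others, within reach of the listing minimum.

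Against untreated plants, miR408 rose in total small RNA by 1.88-fold (log2 difference 0.91 ± 0.30, adjusted p = 0.037) in a comparison that 24.7% of 77 families passed and whose median over families was 0.35. The call was lost in 7 of the 9 fits that left out 1 library, at log2 differences of 0.38 to 1.01 over all 9: each untreated library, each Alternaria library and mock replicate 3, with the lowest value without untreated replicate 3. It was also lost with no filter (0.64, adjusted p = 0.19), with TMM factors from all listed families (0.74, adjusted p = 0.083) and with all libraries in 1 fit (0.74, adjusted p = 0.090). With scaling to genome-matched reads the difference was 2.67, and the shift in the share of miRNA reads between untreated and other total libraries moves with this comparison; its part in the result was not tested. The authors' deposited table gives 0.82 for miR408 here, with an adjusted p-value of 0.25. miR398 did not pass (-0.32 ± 0.28, adjusted p = 0.40), and with genome-matched scaling its sign turned (1.44, adjusted p = 0.013) while the median of all families moved to 1.80.

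In total small RNA the main 5p sequence of miR408 passed against untreated plants. The 5p form with start +1 had means of 191 CPM in untreated and 196 CPM in Alternaria-treated total libraries. The difference between strands was not tested. miR408-5p of 21 nt was higher by 1.31 ± 0.32 on the log2 scale (adjusted p = 0.012), where 21.3% of 296 sequences passed, and miR408-3p of 21 nt differed by 0.12 ± 0.33 (adjusted p = 0.84). Without untreated replicate 1 or 3 the 5p difference was 0.94 (adjusted p = 0.086) or 0.80 (adjusted p = 0.13), and with no filter it was 1.03 (adjusted p = 0.061). The 5p share of miR408 reads was 59.6%, 68.4% and 65.3% in untreated, 75.6%, 69.3% and 73.7% in mock and 82.0%, 77.3% and 80.9% in Alternaria-treated total libraries. These shares did not overlap between any of the treatments, do not depend on scaling between libraries, and are given without a test because they were singled out after their values were seen.

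In AGO1 libraries none of the families passed between Alternaria and untreated plants, where 8.86% of 79 families did. The log2 difference was -0.87 ± 0.29 for miR408 (adjusted p = 0.053), -0.90 ± 0.36 for miR397 (adjusted p = 0.12) and 0.03 ± 0.27 for miR398 (adjusted p = 0.96). miR408 passed with a pseudocount of 5 (adjusted p = 0.049), with limma-voom (adjusted p = 0.049) and with TMM factors from all listed families (-1.09, adjusted p = 0.035), and miR397 passed with the last of these (-1.09, adjusted p = 0.040). Without untreated replicate 3 or mock replicate 3 the adjusted p of miR408 was 0.036 or 0.041. Among the miR408 sequences, the 18 nt form with start +1 fell from 77.2, 41.1 and 25.6 CPM to 13.0, 17.7 and 12.8 CPM (-1.53 ± 0.35, adjusted p = 0.012), as 4.87% of 267 sequences changed. That call was lost without untreated replicate 1 (-1.07, adjusted p = 0.086) and without any 1 of the Alternaria libraries (-1.68 to -1.47).

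The course of miR408, summed over both strands, differed between the fractions. The 5p strand made up 59.6% to 82.0% of these reads in total and 2.31% to 10.9% in AGO1 libraries. The family test therefore compares largely different strands. The log2 difference between Alternaria and untreated plants was lower in AGO1 than in total libraries by -1.87 ± 0.44 (adjusted p = 0.0085), a test that 14.7% of 95 families passed and whose median over families was -0.52. Leaving out 1 library gave values from -2.03 to -1.31, of which the fit without Alternaria replicate 3 of AGO1 missed the threshold (-1.47, adjusted p = 0.0501), and median-of-ratios factors gave -1.28 (adjusted p = 0.082). Against mock the same test gave -1.29 ± 0.44 (adjusted p = 0.27), where 0 of 95 families passed and 7 had an unadjusted p under 0.05. For miR398 the tests gave 0.27 ± 0.37 (adjusted p = 0.66) against untreated and -0.13 ± 0.37 (adjusted p = 0.91) against mock.

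Within one strand the same test passed for miR408-5p of 21 nt (-1.997 ± 0.49, adjusted p = 0.015) among 379 sequences of which 14.5% passed. It did not pass for miR408-3p of 21 nt (-0.90 ± 0.46, adjusted p = 0.22) or for the 20 nt form with start +1 (-0.31 ± 0.83, adjusted p = 0.83). The first of these was lost with median-of-ratios factors (-1.43, adjusted p = 0.097), with library totals alone (-1.85, adjusted p = 0.079) and without untreated replicate 2 or Alternaria replicate 3 of AGO1 (-1.76 and -1.47).

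Between mock and untreated plants none of the 3 families passed in limma. In total small RNA the log2 difference was 0.29 ± 0.28 for miR398 (adjusted p = 0.58) and 0.24 ± 0.30 for miR408 (adjusted p = 0.66), where 5.19% of 77 families passed; with genome-matched scaling they were 1.89 and 1.85, both called. The authors' deposited table gives -0.31 and -0.26 for them, and its ratios ran opposite to mock over untreated across families (Pearson r = -0.90 over 72 families), so it is read here as untreated over mock. In AGO1 libraries the differences were 0.82 ± 0.27 for miR398 (adjusted p = 0.37), -0.20 ± 0.29 for miR408 (adjusted p = 0.82) and -0.77 ± 0.36 for miR397 (adjusted p = 0.64). Here 0 of 79 families passed in limma and 5 had an unadjusted p under 0.05, and the authors' deposited table gives 0.87 for miR398 with an adjusted p-value of 1. Without untreated replicate 3, whose miR398 level was the highest of its group, the miR398 difference in AGO1 passed (1.09, adjusted p = 0.0076).

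**Figure D5:**
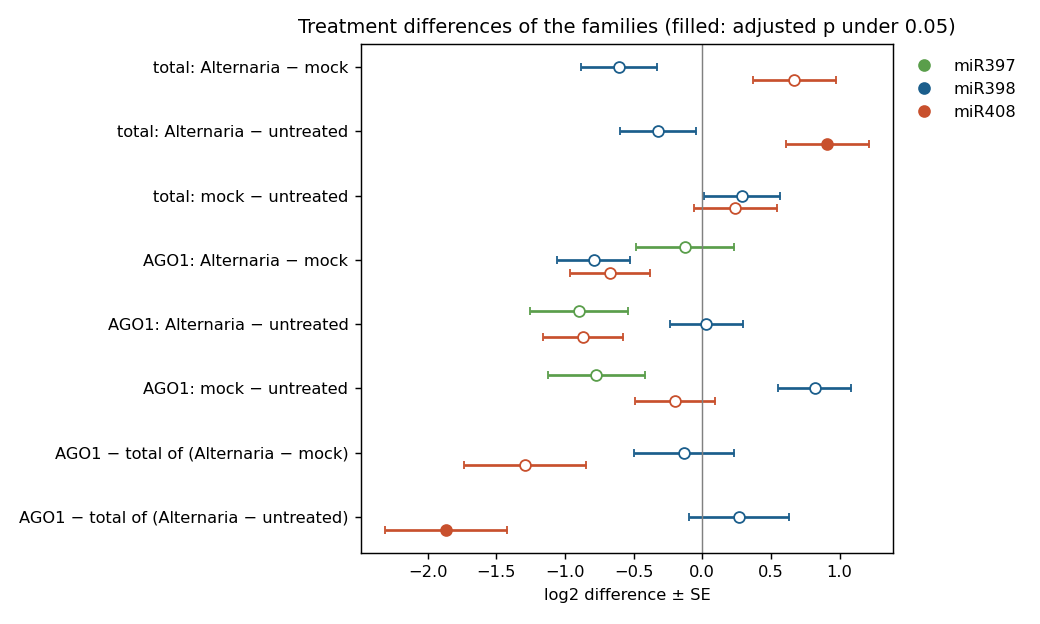
Log2 differences between treatments with their standard errors for miR397, miR398 and miR408 in total and AGO1 libraries, and the difference of these differences between fractions, with filled points where the adjusted p was under 0.05. The filled points are miR408 between Alternaria and untreated plants in total small RNA (0.91) and the test of its difference between fractions (-1.87).

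The authors' deposited tables also compare the fractions within each treatment. The authors' deposited tables give 3.85, 4.63 and 4.23 for miR398 in untreated, mock and Alternaria-treated plants, and -0.98, -1.24 and -2.72 for miR408. Their adjusted p-values for miR408 are 0.20, 0.024 and 1.8e-08. For miR397, listed at 0 in all total libraries, they give infinite ratios with adjusted p-values of 0.034, 0.0017 and 0.0004. The limma fit gave 3.35 ± 0.26, 3.75 ± 0.26 and 3.62 ± 0.26 for miR398 and -1.49 ± 0.31, -2.07 ± 0.31 and -3.36 ± 0.31 for miR408 in the same order. In both sources the miR408 difference was largest in Alternaria-treated plants.

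The families whose log2(CPM + 1) ran most like the copper families were named as a description, over 9 libraries that share depth and treatment. In total libraries these were miR164 (Pearson r = 0.82), miR319 (0.76) and miR384 (0.69) for miR398, and miR172 (0.93), miR399 (0.82) and miR160 (0.82) for miR408. In AGO1 libraries they were miR161 (0.68), miR395 (0.61) and miR825 (0.54) for miR398, miR3932 (0.81), miR1888 (0.80) and miR171 (0.72) for miR408, and miR833 (0.86), miR850 (0.81) and miR847 (0.81) for miR397. None of the 3 copper families was among the 3 most alike of another. Of the 24 member sequences 10 were described in every library by the rule on level; the other 14 reached at most 118 CPM in any library, and 6 of them were listed in no total library and 4 in no AGO1 library.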

How the data were processed

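Small RNA reads were deposited as a miRProf abundance table, which the authors made from size-selected reads per the file headers, with raw read numbers per sequence and run under family names and no read number under 15. TAIR10, FastQC, cutadapt, DESeq 1.2 and DESeq2 are named in the submitters' processing notes. The authors' deposited tables give a log2 ratio and an adjusted p-value per family. The aligner is not given in the sources used here. From the read numbers, the 2 runs of a library were summed, library size was the sum of listed miRNA reads, and CPM were scaled by TMM factors (trims 0.3 and 0.05, own code). A count test was not used as the main test. limma 3.58.1 in R 4.3.3 was fitted to log2(CPM + 1) with trend and robust moderation on all families, or all sequences, that reached the CPM of 10 reads at median depth in 3 libraries; a fold is on this scale and understates low values. Treatments were compared within the 9 libraries of a fraction, fractions and interactions in all 18, with p adjusted by Benjamini-Hochberg over all features tested at 0.05. The fit was tested on simulated data. Sequences were placed on TAIR10.1, where 461 of 476 had the deposited number of matches.

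Members and lists were chosen with earlier results of these data known. A member sequence was given in every library where its mean reached 100 CPM in 1 group or it was the most read of its family in a fraction; like families are the 3 with the highest Pearson r. Alternatives were other factors and library sizes, a pseudocount of 5, no filter, limma-voom, a replicate block, each library left out, and all libraries in 1 fit.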

Additional observations from a re-analysis of the deposited data

Results flagged for a closer look

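The log2 difference between Alternaria-treated and untreated plants differed between the fractions for miR408, by -1.87 ± 0.44 (SE, limma, adjusted p = 0.0085), with all 3 Alternaria libraries above the untreated ones in total and below them in AGO1 libraries. The family reads were mostly 5p strand in total and mostly 3p strand in AGO1 libraries, so largely different strands are compared. The same test of AGO1 against total passed for miR408-5p of 21 nt (-1.997 ± 0.49, limma, adjusted p = 0.015), which reached at most 37.0 CPM in an AGO1 library. It also passed for miR398a-3p of 21 nt (-2.90 ± 0.69, limma, adjusted p = 0.012), which was listed at 0 in 2 of the 3 Alternaria libraries of AGO1, where up to 28 reads may be unlisted. No group held more than 3 libraries, so single libraries were not tested for standing apart.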

How the results depend on the processing

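Of 1022 values of 49 results under alternative settings, 905 counted as unchanged and 28 changed sign. Unchanged means the same direction and the same side of the threshold. For the numbers of families called, which have neither, it means a number near the main one. The cause of the changes was not tested. Log2 differences are given below, with adjusted p from limma where a call changed. With scaling to genome-matched reads, miR398 gave 1.44 (0.0129) for Alternaria against untreated and 1.89 (0.00243) for mock against untreated in total, -1.02 (0.0464) for Alternaria against mock in AGO1 and -1.43 (0.0372) for the difference between fractions against untreated; miR408 gave 1.85 (0.00321) and 0.016 for mock against untreated in total and AGO1 and 0.33 (0.194) between fractions; miR398a/b/c-3p of 20 nt and miR408-3p of 21 nt gave 0.16 and 0.11 between fractions, and miR398b/c-3p of 21 nt -0.26 for the difference between fractions against mock. With TMM factors from all listed families, chosen after seeing the data, Alternaria against untreated gave -1.09 (0.0405) for miR397, -0.19 for miR398, -0.18 for miR398b/c-3p of 21 nt and -1.09 (0.0352) for miR408 in AGO1 and 0.74 (0.0831) for miR408 in total, and Alternaria against mock gave -1.12 (0.00752) for miR398 in AGO1. With all libraries in 1 fit Alternaria against untreated gave -0.23 for miR398 and -0.22 for miR398b/c-3p of 21 nt in AGO1 and 0.74 (0.0903) for miR408 in total. Median-of-ratios factors gave 0.013 for the difference between fractions of miR398 against mock and -1.28 (0.0824) for that of miR408 against untreated, and library totals alone 0.029 for miR408 between mock and untreated in AGO1. For Alternaria against untreated, miR408 gave 0.64 (0.190) with no filter in total, and -0.86 (0.0492) with a pseudocount of 5 and -0.88 (0.0487) with limma-voom in AGO1. Replicate numbers did not pair the libraries (r from -0.257 to 0.431, over 0.1 in 6 of 27 pairs); with them as a replicate block, miR398 gave -0.79 (0.0452) for Alternaria against mock in AGO1, and miR408 gave -0.87 (0.0169) in AGO1 and 0.91 (0.0606) in total against untreated.

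The number of families called moved as follows. For Alternaria against mock it was 5 in total and became 3 with median-of-ratios factors, 3 with library totals alone, 1 with genome-matched reads and 2 with the replicate block; in AGO1 it was 4 and became 2 with library totals alone, 7 with the block and 0 with all libraries in 1 fit. For Alternaria against untreated it was 19 in total and became 59 with genome-matched reads, and in AGO1 it was 7 and became 11 with the block and 1 with all libraries in 1 fit. For mock against untreated in total it was 4 and became 48 with genome-matched reads and 11 with all libraries in 1 fit. For the difference between fractions it was 0 against mock and became 1 with library totals alone, and 14 against untreated and became 56 with genome-matched reads.

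Leaving out 1 library at a time, the families called ranged from 2 to 6 and 10 to 24 in total against mock and untreated, 0 to 8 for mock against untreated, 2 to 5, 1 to 14 and 0 to 1 for the same comparisons in AGO1, and 0 to 6 and 9 to 22 for the differences between fractions. In AGO1, Alternaria against mock ranged from -0.38 to 0.027 for miR397 and -1.06 to -0.64 for miR398; Alternaria against untreated from -0.14 to 0.30 for miR398, likewise -0.14 to 0.30 for miR398b/c-3p of 21 nt, and -1.02 to -0.57 for miR408; and mock against untreated from 0.67 to 1.11 for miR398 and -0.35 to 0.20 for miR408. In total, miR408 ranged from 0.38 to 1.01 against untreated and from -0.030 to 0.45 for mock against untreated. The difference between fractions ranged from -0.35 to 0.15 for miR398 and -0.16 to 0.50 for miR398b/c-3p of 21 nt against mock, and from -2.03 to -1.31 for miR408 against untreated. A sequence under 15 reads in a run is unlisted, which limits low members most in the shallower total libraries.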
